A study of Homo sapiens with 2 samples.

Results

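The nuclear pore complex is the channel through which RNA and protein pass between nucleus and cytoplasm. It is built from many copies of each of its subunits, the nucleoporins, arranged as outer and inner rings, a central channel lined with phenylalanine-glycine repeats, filaments on the cytoplasmic side and a basket on the nuclear side. Cargo is carried through it by importins, transportins and exportins, receptors that load and unload under the control of the small GTPase Ran. Erythroid progenitors still divide, and they rebuild their pores after each mitosis before the nucleus is expelled at the end of maturation.

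The 45 genes described here are all protein-coding genes of the RefSeq table whose symbol is NUP, IPO, KPNA, KPNB, TNPO or XPO followed by a digit, out of 19821 protein-coding genes on chromosomes 1 to 22 and X. They comprise 23 nucleoporin genes and 22 genes of transport receptors on 17 chromosomes. An additional exportin gene with such a symbol was left out and is not analysed here. The rule reads symbols and no measured value, but it was set with earlier results of these data known.

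Start positions came from PRO-cap, a nuclear run-on assay that captures nascent RNA by its 5' end, in HUDEP-2, an established human cell line of immortalised erythroid progenitors, used as wild type. The study had 1 group of 2 biological replicates and no treatment, and the positions are given once for the cell line. A call says that a start was found at a base. It carries no level, so that a gene without a call may be transcribed below the unknown threshold, and the depth behind each call is unknown. The deposited data held 26395 calls, of which 13229 were forward and 13166 reverse, and calls of the same strand were at least 251 bp apart. Of 14 erythroid marker genes 12 had a called start, among them GATA1, KLF1 and ALAS2, while TAL1 and EPB42 had none at a gene end. None of 18 markers of T, B, myeloid, megakaryocyte, liver or fibroblast cells had one, where 0 of 18 allows a share of up to 16.7% by a limit of 3 counts and 17.6% by the Wilson interval, and 2 of the 18 held a call elsewhere in or near the gene.

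The 45 genes and their surroundings of 1000 bp held 116 calls. A gene was counted as having a called start when an inward-pointing call fell no more than 500 bp from either of its ends. Of the 45 genes, 37 had such a call (82.2%, 95% Wilson interval 68.7 to 90.7), against 8207 of all 19821 protein-coding genes (41.4%, 40.7 to 42.1). Intervals cover counting error only, and genes are not replicates of a condition. Nucleoporins had 20 of 23 (87.0%, 67.9 to 95.5) and receptors 17 of 22 (77.3%, 56.6 to 89.9), with intervals that overlap. For 40 of the 45 genes the promoter table gave a direction. At the 5' end of these, 34 of 40 had an inward call (85%, 70.9 to 92.9), against 6789 of 15812 protein-coding genes with a direction (42.9%). At the 3' end 1 of 40 had one (2.5%), against 210 of 15812 (1.33%).

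**Figure D1:**
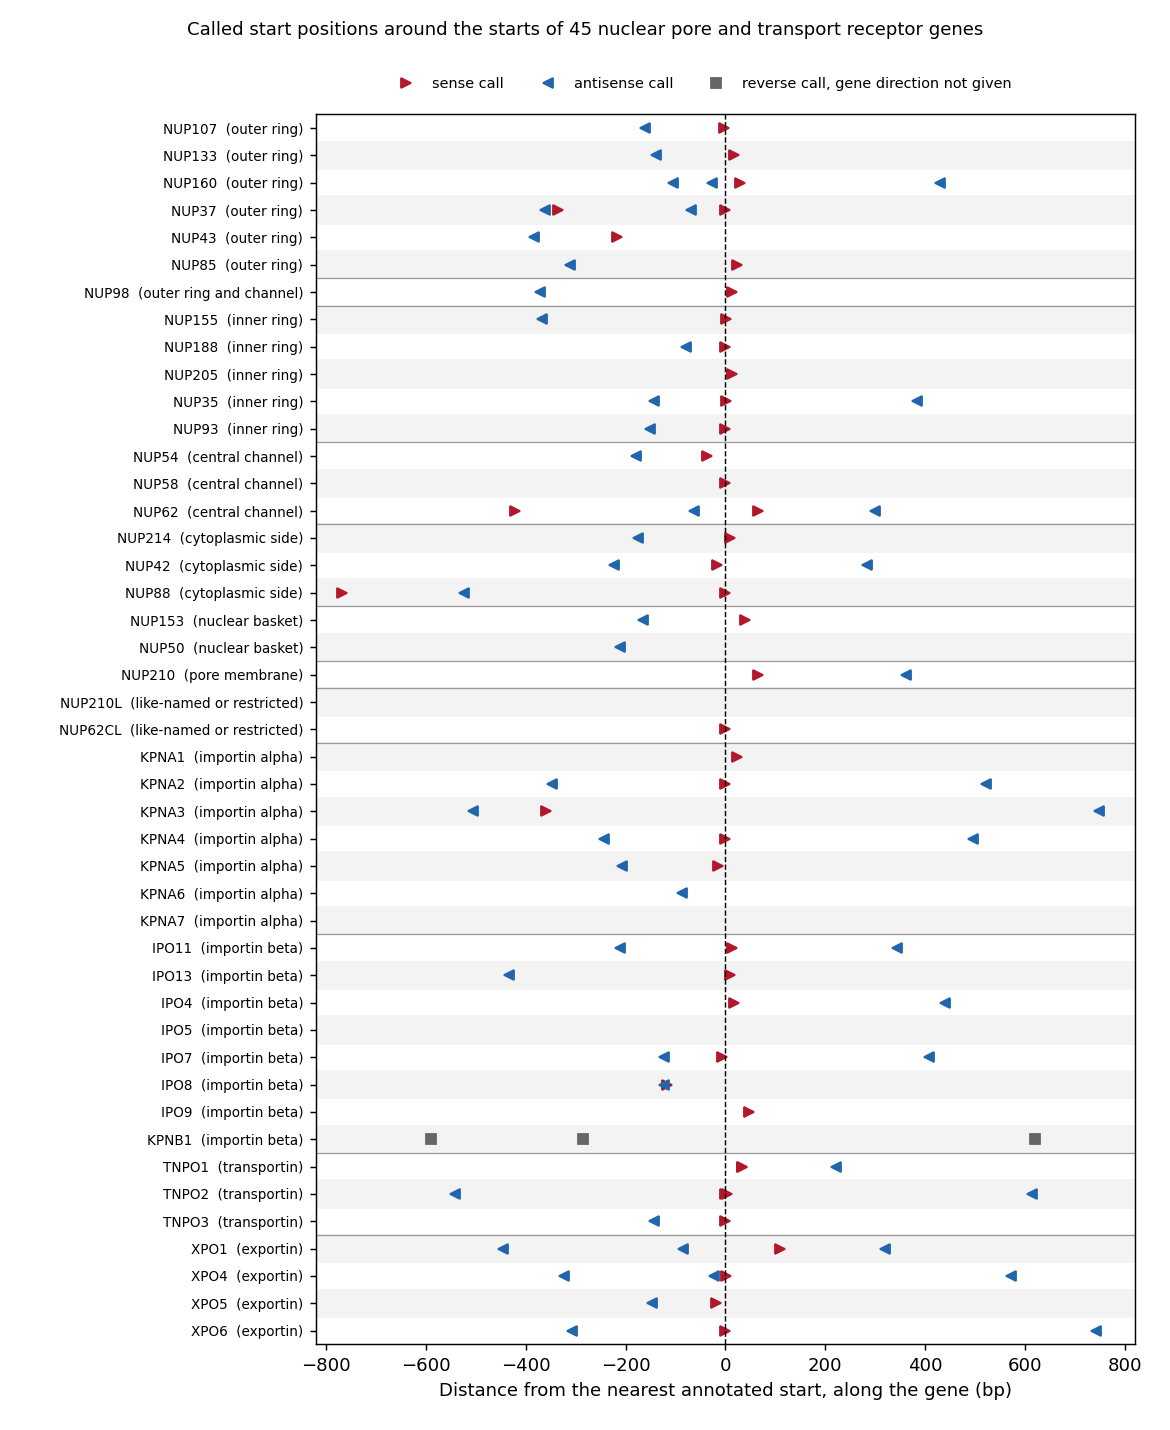
Calls within 800 bp of the annotated starts of the 45 genes, 1 row a gene in the order of their roles. The x axis is the distance in bp along the gene from the nearest listed start (for KPNA4, KPNA5 and NUP43 from the gene end with the inward call, and for KPNB1 from its lower coordinate), and arrowheads point right for sense and left for antisense calls, with squares for the reverse calls at KPNB1. Sense calls gather at 0 in most rows, while KPNA6 and NUP50 show a single antisense call, and NUP210L, KPNA7 and IPO5 show none in this range.

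The outer ring is made of Y-shaped complexes. All 6 of its members here had a called start. The call of NUP107 lay at position 68686975 of chromosome 12 (hg38), 3 bp outside the gene, and that of NUP133 at 229508323 of chromosome 1, 18 bp inside. NUP37 was called 1 base outside its end at 102120115 of chromosome 12 and NUP85 24 bp inside at 75205703 of chromosome 17. These 4 starts thus sat close to the annotated ends. NUP160 and NUP43 were called farther off. The call of NUP160, at 47848321 of chromosome 11, was 223 bp inside the outer gene end but 29 bp inside another start listed for the gene. NUP43, for which no promoter entry was used, was called 218 bp outside, at 149749576 of chromosome 6. NUP98, whose precursor protein is cut into a channel nucleoporin and an outer ring subunit, had its call at 3797532 of chromosome 11, 14 bp inside a listed start.

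In the inner ring, the scaffold around the channel, 4 of 5 genes had a called start by the gene end. NUP188 was called exactly on its annotated start, at 128947699 of chromosome 9. NUP93, the linker of the ring, was called 1 base outside at 56730128 of chromosome 16, NUP155 2 bp inside at 37371104 of chromosome 5 and NUP205 14 bp inside at 135557931 of chromosome 7. NUP35 missed the definition because its outermost annotated end lay 6931 bp upstream of its call. That call, at 183124445 of chromosome 2, was 2 bp inside the single start that the promoter table lists for NUP35.

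The channel nucleoporins NUP54, NUP58 and NUP62, which form 1 trimer, were all called. The call of NUP58 lay 1 base outside the gene, that of NUP54 37 bp outside and that of NUP62 65 bp inside. NUP62 shares its annotated end with IL4I1 on the same strand, and the call cannot be assigned to either gene. Among the 37 genes it was the only one whose start call also lay at a same-strand end of another protein-coding gene (2.7%, against 2.8% of all called protein-coding genes). On the cytoplasmic side NUP88 was called 1 base outside, NUP214, its binding partner, 10 bp inside and NUP42, which binds the mRNA export factor GLE1, 17 bp outside. Of the basket genes NUP153 was called 39 bp inside, with a further sense call 821 bp inside, and NUP50 had no start call. NUP210, a membrane glycoprotein of the pore, was called 66 bp inside.

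NUP210L, a relative of NUP210 known from testis, held no call anywhere in its 162427 bp or within 1000 bp of it. NUP62CL on chromosome X, named for its likeness to the end of NUP62, had a call 1 base outside its annotated start, at 107206434, and no other call.

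Importin alpha proteins bind the classical nuclear localisation signal and hand the cargo to importin beta. Of their 7 genes 5 had a called start. KPNA2 at 68035734 of chromosome 17 and KPNA4 at 160565572 of chromosome 3 were each called 1 base outside the gene. KPNA5 was called 14 bp outside, KPNA1 23 bp inside and KPNA3 359 bp outside, the last at 49793041 of chromosome 13. KPNA6 and KPNA7 had none. KPNA7, known mainly from oocytes and early embryos, held no call in or near its 73616 bp.

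Of the 8 genes of the importin beta family, 6 had a called start. IPO7 was called 6 bp outside, IPO13, which works in both directions, 9 bp inside, IPO11 13 bp inside and IPO4, an importer of histones, 18 bp inside. IPO9 was called 48 bp inside and IPO8 117 bp outside. IPO5, an importer of ribosomal proteins, and KPNB1, importin beta itself, had none. All 4 exportins were called. XPO6, the exporter of actin, was called 1 base outside, XPO5, the exporter of precursor microRNAs, 18 bp outside and XPO4 2 bp inside a listed start. XPO1, the receptor for leucine-rich export signals, was called at 61538247 of chromosome 2, 109 bp inside the nearer of its 2 listed starts and 365 bp inside the outer gene end.

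The transportins carry RNA-binding proteins into the nucleus. TNPO1 was called 33 bp inside and TNPO2, its close relative, 1 base outside. Each of them also had a sense call at a second listed start. For TNPO1 this call was 31511 bp into the gene, 33 bp inside the second listed start, and for TNPO2 it was 1677 bp into the gene, 4 bp inside the second listed start. TNPO3, the receptor of serine- and arginine-rich splicing factors, resembled NUP35. Its call, at 129055111 of chromosome 7, fell exactly on its listed start but 1082 bp inside the outer end. At both NUP35 and TNPO3 an antisense call lay 143 bp upstream of the listed start, and that at TNPO3 was 31 bp from the end of the transcribed pseudogene TPI1P2.

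Counting a same-strand call within 500 bp of any listed start, a rule added after the calls had been seen, 36 of 40 genes had a start (90%, 76.9 to 96.0), against 7440 of 15812 protein-coding genes (47.1%). By either rule 39 of 45 had one (86.7%), against 8978 of 19821 (45.3%). The 6 without one were IPO5, KPNA6, KPNA7, KPNB1, NUP50 and NUP210L.

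Of these 6, KPNA6, NUP50 and KPNB1 held calls close to their ends that ran the other way. KPNA6 had a single call, antisense, at 32107970 of chromosome 1, 86 bp upstream of its start. NUP50 likewise had a single antisense call, at 45163714 of chromosome 22, 211 bp upstream of its start and 67 bp inside the end of the noncoding gene NUP50-DT. At KPNB1, for which no direction was given in the tables used, there were 3 reverse calls on chromosome 17, at 47649329 and 47649633 below the lower gene coordinate of 47649919, and at 47650538 inside the gene. The first lay 99 bp inside the end of the noncoding gene KPNB1-DT and the second 205 bp beyond it. No forward call lay in KPNB1 or within 1000 bp of it. Among genes with a direction and without a start by either rule, 2 of 4 members had an antisense call up to 500 bp upstream of the gene, KPNA6 and NUP50, against 418 of 8157 protein-coding genes (5.12%). IPO5 held a reverse call at 97976391 and a forward call at 97976691 of chromosome 13, 22716 and 23016 bp into the gene. The listed start of IPO5, at the gene end, held no call.

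These listed starts without a call of their own strand are shown from RefSeq (GRCh38.p14), on the forward strand, so that they can be set beside the called starts that follow. Capitals mark the listed start and, for KPNA6, also the complement of the base called antisense, on the left. The windows are chr1:32107965-32108061 for KPNA6, chr22:45163880-45163935 for NUP50 and chr13:97953630-97953685 for IPO5.
KPNA6: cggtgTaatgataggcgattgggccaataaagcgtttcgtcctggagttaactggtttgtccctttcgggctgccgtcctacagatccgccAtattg
NUP50: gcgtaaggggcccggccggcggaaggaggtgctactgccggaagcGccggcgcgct
IPO5: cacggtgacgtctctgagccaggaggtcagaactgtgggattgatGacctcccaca

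Where a gene has near copies elsewhere in the genome, the lack of a call at it is uncertain, because the handling of reads with several matches is not stated in the labels. The gene table held 24 pseudogenes named after 12 of the 45 genes, among them 4 of NUP50 and 1 of KPNB1. Most of these genes, such as KPNA2, TNPO1 and NUP210, had a called start. KPNA6, KPNA7 and NUP210L, which had no start, had no pseudogene named after them. Of the 24 pseudogenes, only IPO5P1, on chromosome 19, held a call, 34 bp inside its end at 23274217. Whether this call belongs to IPO5 was not tested. The other 23 pseudogenes held none, and the share with a call over all pseudogenes of the gene table was not counted.

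The called starts lay near the annotated ends. Over the 37 genes the median offset was 0 bp (quartiles -1 and 23, from 359 bp outside to 365 bp inside), against a median of 4 bp inside (quartiles -1 and 32) over the 8207 protein-coding genes with a called start. Within 10 bp lay 15 of 37 (40.5%, 26.3 to 56.5), against 45.9%, and within 50 bp lay 30 of 37 (81.1%, 65.8 to 90.5), against 77.6%. The call lay 1 base outside the gene end in 9 of 37 genes (24.3%), namely KPNA2, KPNA4, NUP37, NUP58, NUP62CL, NUP88, NUP93, TNPO2 and XPO6, and exactly on it in 1, NUP188. Over all called protein-coding genes the shares were 16.9% and 9.71%. Over all called protein-coding genes the share at 1 base outside was 16.7% for forward and 17.1% for reverse starts. Whether read ends were trimmed or carried an added base is not stated in the labels, so that a called base may differ by 1 from the first transcribed base, which was not tested.

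Transcription by RNA polymerase II usually starts at a purine that follows a pyrimidine, the core of the initiator. For 7 of the 8 genes whose call lay 1 base upstream of a listed start, the RefSeq sequences (GRCh38.p14) from 35 bases before to 10 after the call are given, with the called base and the base after it in capitals. They run 5' to 3' on the strand of the gene. The windows are chr13:25301589-25301634 (forward) for NUP58, chr17:5419653-5419698 (reverse) for NUP88, chr16:56730093-56730138 (forward) for NUP93, chr17:68035699-68035744 (forward) for KPNA2, chr16:28211956-28212001 (reverse) for XPO6, chr19:12723923-12723968 (reverse) for TNPO2 and chrX:107206424-107206469 (reverse) for NUP62CL.
NUP58: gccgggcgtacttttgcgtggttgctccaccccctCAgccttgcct
NUP88: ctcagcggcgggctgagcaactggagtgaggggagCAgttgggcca
NUP93: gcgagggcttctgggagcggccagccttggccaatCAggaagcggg
KPNA2: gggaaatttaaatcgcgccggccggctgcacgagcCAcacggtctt
XPO6: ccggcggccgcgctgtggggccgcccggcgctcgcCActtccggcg
TNPO2: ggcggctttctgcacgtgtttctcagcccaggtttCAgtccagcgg
NUP62CL: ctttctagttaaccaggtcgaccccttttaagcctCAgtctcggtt

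In each of these the called base was C and the base after it A, so that the pyrimidine-purine step lay at the call and the base after it. The same step was found in all 8 member genes called 1 base upstream of a listed start, NUP37 being the other. It was also found in 1350 of 1403 protein-coding genes called there (96.2%). In these genes the base after the call is the listed start itself. At a further set of starts the step ended on the called base. Among calls exactly on a listed start, it did so in 2 of 2 members and in 622 of 845 protein-coding genes (73.6%). In the following windows T stands before the called base, and both are in capitals. They are chr2:183124410-183124455 (forward) for NUP35, chr7:135557896-135557941 (forward) for NUP205, chr7:129055101-129055146 (reverse) for TNPO3 and chr1:229508313-229508358 (reverse) for NUP133.
NUP35: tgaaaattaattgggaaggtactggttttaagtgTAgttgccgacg
NUP205: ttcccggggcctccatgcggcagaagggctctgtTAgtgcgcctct
TNPO3: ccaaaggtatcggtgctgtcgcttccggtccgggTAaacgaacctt
NUP133: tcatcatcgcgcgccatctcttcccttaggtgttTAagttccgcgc

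The promoter windows held the called base and its neighbours for 32 of the 36 genes called at a listed start. Of these 32, 14 had a pyrimidine before a purine at the call (43.8%, 28.2 to 60.7), against 2003 of 6488 protein-coding starts (30.9%). In all 14 that pyrimidine was T, as it was in 1909 of those 2003. Another 12 had a pyrimidine at the call and a purine after it (37.5%, 22.9 to 54.7), against 3047 of 6488 (47%). In either position the step was found in 26 of 32 (81.2%, 64.7 to 91.1), against 5050 of 6488 protein-coding starts (77.8%). The called base was C in 13 (40.6%), A in 11 (34.4%) and G in 8 (25%) member genes. Over the 6488 protein-coding starts these shares were 51.2%, 23% and 23.4%. In the member genes it was T in 0 of 32, which allows a share of up to 9.38% by a limit of 3 counts and 10.7% by the Wilson interval. Over all 6488 protein-coding starts the called base was T in 152 (2.34%), while T stood before the call in 2850 (43.9%). A call on C with A after it was found in 11 of the 32 member starts (34.4%), against 36.8% of all.

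Promoters of mammalian genes often start transcription in both directions. A divergent partner, the nearest call of the opposite strand 0 to 300 bp upstream, was found for 21 of the 37 called genes (56.8%, 40.9 to 71.3), against 4159 of 8207 protein-coding genes (50.7%). Nucleoporins had 12 of 20 (60.0%) and receptors 9 of 17 (52.9%). The median distance was 149 bp, against 153 bp over all called protein-coding genes. The closest were the calls of IPO8, 5 bp apart, XPO4, 53 bp apart, and NUP160, 55 bp apart, and the widest of the 21 was KPNA4 with 242 bp. A further 7 genes had an opposite call more than 300 and up to 1000 bp upstream, from 307 bp for XPO6 to 522 bp for NUP88, and 9 had none within 1000 bp. Those 9 were IPO4, IPO9, KPNA1, NUP58, NUP62CL, NUP205, NUP210, TNPO1 and TNPO2. The shares with and without an opposite call up to 1000 bp upstream were not counted over all called protein-coding genes. Within 500 bp, 27 of 37 members had one (73%), against 62.1% of all called protein-coding genes.

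**Figure D2:**
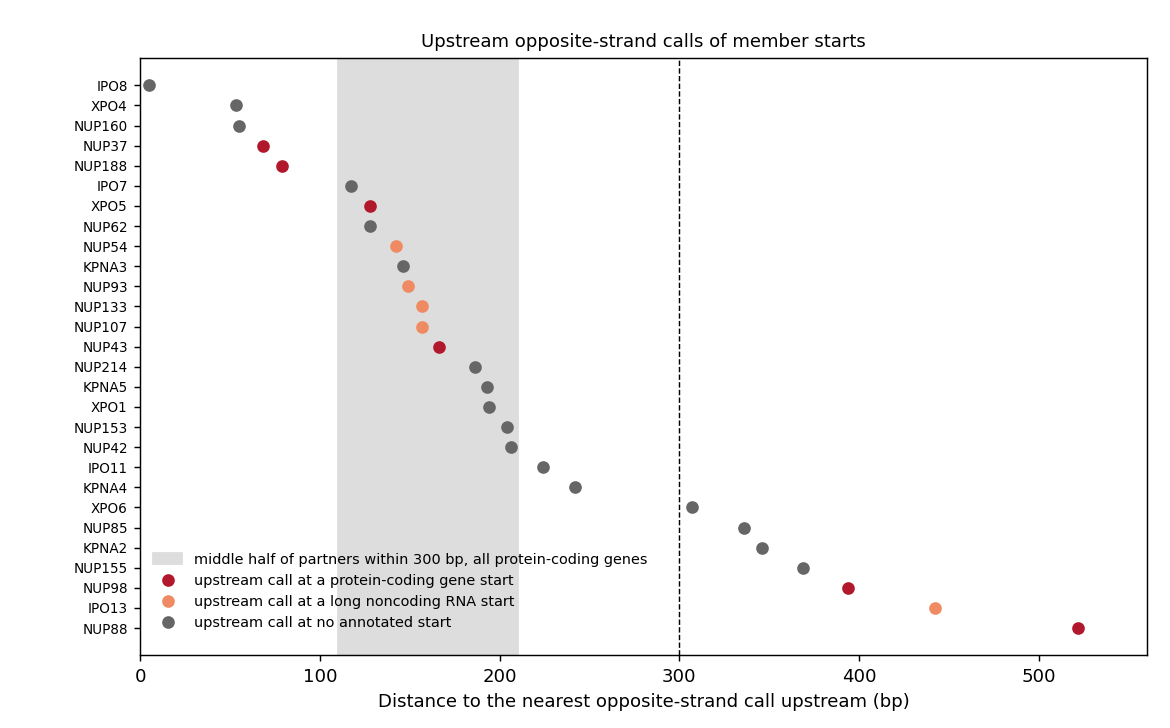
Distance in bp (x axis) from the start call of a member to the nearest opposite-strand call upstream, 1 point for each of the 28 genes with one within 1000 bp, sorted. Colours give what the upstream call starts, the dashed line is the 300 bp limit, and the grey band spans the quartiles of partner distances over all called protein-coding genes (110 to 210 bp).

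For 4 of the 21 genes with a partner, the partner was itself the start of another protein-coding gene (19.0%, 7.67 to 40.0), against 29.2% of the 4159 protein-coding genes with a partner. NUP188 was paired with DOLK, which makes the lipid carrier of sugar chains, at 79 bp, and the DOLK call lay 17 bp from its gene end. NUP37 was paired with PARPBP, a gene of the DNA damage response, at 68 bp, and that call fell exactly on the PARPBP end. XPO5 was paired with POLH, which encodes the translesion DNA polymerase eta, at 128 bp, with the call 1 base from the POLH end. NUP43 was paired with PCMT1, a protein repair methyltransferase, at 166 bp. Another 4 partners lay at ends of long noncoding RNA genes, namely NUP93-DT, NUP133-DT, LOC124900718 beside NUP54 and LOC100507250 beside NUP107. This was 19% of the 21, against 16.3% of the 4159 with the partner at the end of any gene other than protein-coding. The other 13 started no gene of the table (61.9%, against 54.5% of the 4159). Beyond 300 bp, NUP98 faced the start of PGAP2 at 394 bp, NUP88 that of RPAIN at 522 bp and IPO13 the noncoding LOC101929609 at 442 bp.

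The DNA between both calls of 5 divergent starts is given from RefSeq (GRCh38.p14), with 5 bases on each side, on the strand of the member gene. Capitals mark the called base of the member, on the right, and the complement of the called base of the partner, on the left. The windows are chr9:128947615-128947704 (forward) for NUP188 with DOLK, chr12:102120110-102120188 (reverse) for NUP37 with PARPBP, chr6:43576051-43576189 (reverse) for XPO5 with POLH, chr13:20902739-20902802 (reverse) for XPO4 and chr12:30695981-30695996 (reverse) for IPO8.
NUP188: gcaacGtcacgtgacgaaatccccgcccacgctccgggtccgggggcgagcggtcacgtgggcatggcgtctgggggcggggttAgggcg
NUP37: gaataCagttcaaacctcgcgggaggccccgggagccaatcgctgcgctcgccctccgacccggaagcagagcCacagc
XPO5: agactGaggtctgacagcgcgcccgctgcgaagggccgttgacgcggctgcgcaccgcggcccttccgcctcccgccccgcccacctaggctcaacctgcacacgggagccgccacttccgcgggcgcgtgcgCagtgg
XPO4: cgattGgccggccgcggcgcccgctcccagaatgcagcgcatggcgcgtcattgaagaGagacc
IPO8: cgtttTccgtAcagca

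The stretch between NUP188 and DOLK held GGGCGG on either strand at 2 places and CACGTG at 2 places. That between NUP37 and PARPBP held 1 CCAAT and 1 CCGGAAG, and that between XPO5 and POLH held GGGCGG on the other strand at 2 places.

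The reverse arrangement, an opposite call 1 to 300 bp downstream, occurred at 3 of 37 starts (8.11%, 2.80 to 21.3), against 8.14% of all called protein-coding genes. These were TNPO1 at 189 bp, NUP62 at 235 bp and NUP210 at 296 bp. At NUP62 the downstream call lay inside the protein-coding gene ATF5, within 500 bp of its end, and so also counted as a start of ATF5. The start call of NUP62 and its divergent partner lay inside ATF5 as well. At TNPO1 the downstream call lay 335 bp beyond the end of the noncoding TNPO1-DT. More than 1 inward call was found for 3 of the 37 genes (8.11%), against 15.4% of all called protein-coding genes. NUP37 had a second start call 336 bp outside its end and NUP62 one 422 bp outside. The second call of NUP107 lay at the other end of the gene, 261 bp beyond it, beside a start call of the neighbouring gene SLC35E3 on the opposite strand.

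**Figure D3:**
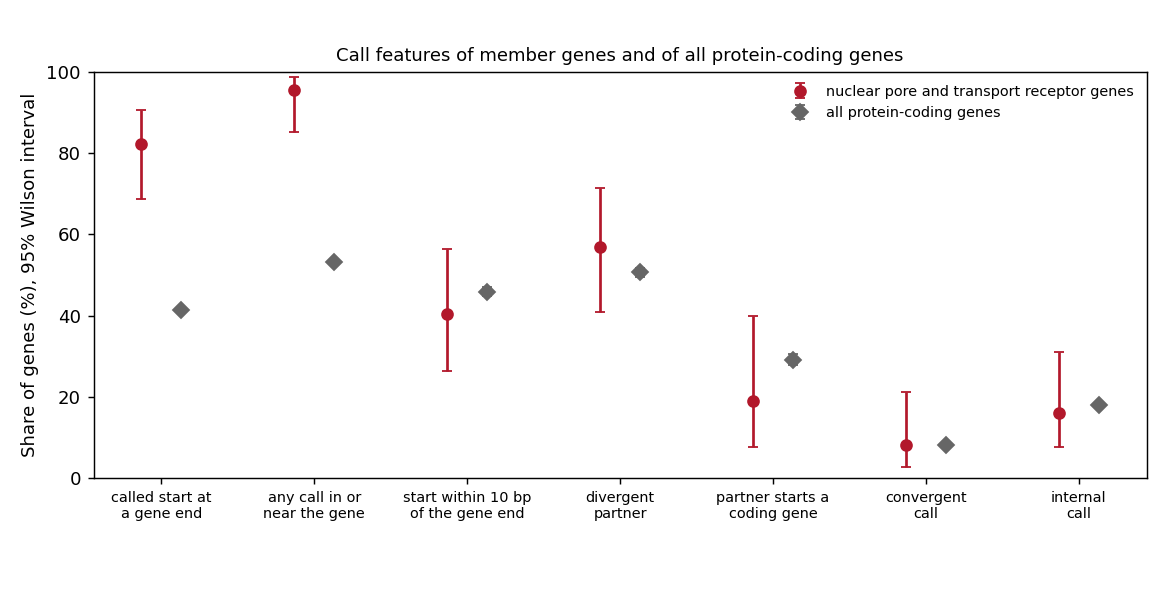
Shares of genes in percent (y axis) with each call feature, red circles for the nuclear pore and transport receptor genes and grey diamonds for all protein-coding genes, with 95% Wilson intervals. A called start was found in 82.2% against 41.4%, while the shares of all genes for partners, convergent and internal calls lay within the intervals of the member genes.

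Promoter windows of 300 bases at the first listed start were searched on both strands for 9 short motifs. In genes with several listed starts, 11 of the members, the first need not be the called one. The share of member genes is given over the 36 with a called listed start, and the comparison is the 7440 protein-coding genes with one. GGGCGG, the GC box, was present in 20 of 36 (55.6%, 39.6 to 70.5), against 72.6%. CCAAT, the CCAAT box, was present in 18 (50%, 34.5 to 65.5), against 38.8%, and CCGGAAG, read by ETS factors, in 11 (30.6%, 18 to 46.9), against 23.6%. The genes with CCGGAAG and a called listed start were IPO4, NUP35, NUP37, NUP54, NUP58, NUP88, NUP107, NUP160, NUP214, TNPO3 and XPO6. AAGATGGC, a YY1 motif, was present in 5 (13.9%, 6.08 to 28.7), against 6.88%, in NUP88, NUP160, NUP188, NUP205 and XPO6. TGACGT (CRE-like) and CACGTG (E-box) were each present in 5 (13.9%), against 13.3% and 11.7%. GCATGCGC, a part of the NRF1 motif, was present in 3 (8.33%), against 6.94%.

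TATAAA was present in 1 of the 36, IPO11 (2.78%), against 5.07%. AGATAA, a core motif of the erythroid factor GATA1, was found in 0 of the 40 member promoters. The share was 7.55% of all 15812 protein-coding promoters and 4.31% of those with a called listed start. Only these letters were searched, and other strings with GATA, such as TGATAG in the KPNA6 window printed above, were not counted. A count of 0 of 40 allows up to 7.5% by a limit of 3 counts and 8.76% by the Wilson interval. The share of all promoters, 7.55%, lies just above the first limit and below the second, so that 40 windows do not settle a difference. CCGGAAG and AAGATGGC can share bases, as can TGACGT and CACGTG. These matches describe letters in a window and say nothing about binding. Over the 40 windows the median GC content was 62.8%, from 44.0% in NUP210L to 81.3% in NUP210, against 62.7% over all protein-coding windows, and the median number of CpG was 26.5, against 22.

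**Figure D4:**
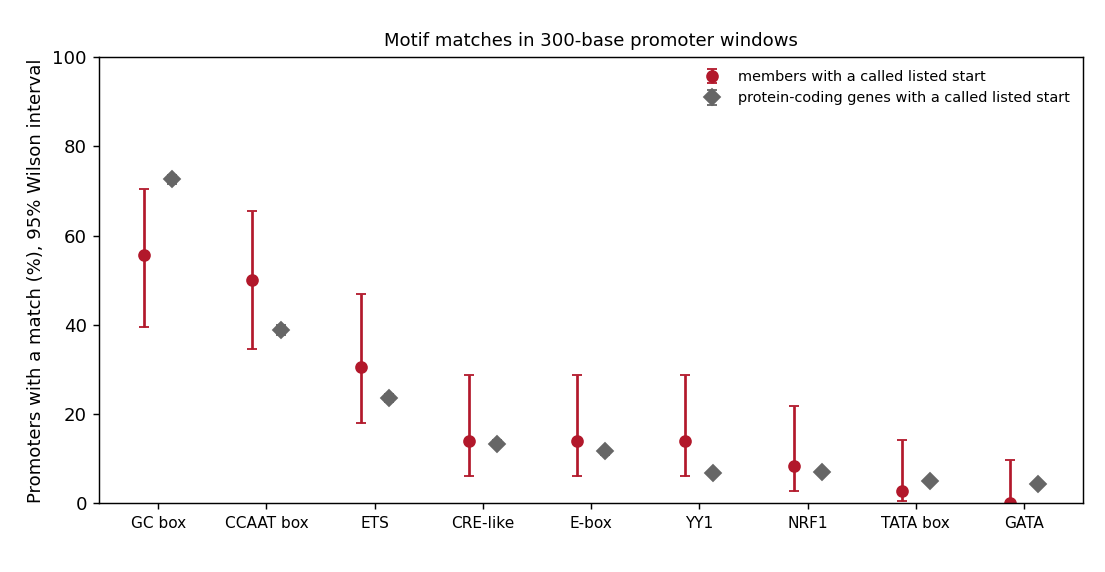
Share of 300-base promoter windows with a match to each motif (y axis, percent), red circles for the 36 member genes and grey diamonds for the 7440 protein-coding genes with a called listed start, with 95% Wilson intervals. The GC box was matched in 55.6% against 72.6%, outside the interval of the member genes, and the comparison value of each of the other 8 motifs lay within it.

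Calls deep inside a gene can mark second promoters, enhancers or genes nested in introns. Of the 37 genes, 6 held a call more than 1000 bp from both ends (16.2%, 7.65 to 31.1), against 18% of all called protein-coding genes. With a distance of 500 bp the shares were 29.7% (11 of 37) and 28.9%. These genes are long, with a median of 63476 bp against 28440 bp, and they held 12 internal calls, or 0.483 per 100 kb, against 0.661. TNPO2 had 4 such calls. Besides the call at its second listed start and an antisense call 1131 bp inside, sense calls lay at 12703669 and 12706517 of chromosome 19, 2 bp and 1 bp from the ends of SNORD135 and SNORD41, small nucleolar RNA genes within TNPO2. Whether the calls at SNORD135 and SNORD41 are starts of transcription was not tested. TNPO1 had 2 internal calls, the second start described above and an antisense call 32309 bp inside.

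NUP43 had 2 internal calls, both antisense to its start call, 2713 and 20942 bp inside. NUP153 had an antisense call 1332 bp and a sense call 44197 bp inside. KPNA1 had a single antisense call 12515 bp inside and XPO1 one 1845 bp inside. Counting the members without an inward call as well, 9 of 45 had an internal call, and the same share over all protein-coding genes was not counted. The genes added were IPO5, NUP35 and TNPO3. For NUP35 and TNPO3 the internal calls include the call at the listed start described above. Any call in or within 1000 bp of the gene was found for 43 of 45 (95.6%, 85.2 to 98.8), against 53.3% of protein-coding genes. This count covers the whole gene, and the median length was 66882 bp for the 45 genes, against 24482 bp for all protein-coding genes.

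The pore and its transport cycle also need genes with other names, and 32 of these were examined. A called start was found for 25 (78.1%, 61.2 to 89.0), against 41.4% of all protein-coding genes. Among them were AAAS, AHCTF1, which founds new pores on chromatin, the exportin CSE1L, which returns importin alpha to the cytoplasm, DDX19A, GLE1, HIKESHI, MCM3AP and NDC1. Those without one included DDX19B, NXT2, POM121C, RANBP1, RANGAP1 and SNUPN. Of these, RANGAP1, the Ran GTPase activator, had a call 8 bp outside a listed start, SNUPN 13 bp inside one, DDX19B 1 bp inside one and NXT2 exactly on one. All 32 genes had a call in or within 1000 bp of the gene, against 53.3% of all protein-coding genes. POM121C is a near copy of POM121, which was called, so that the lack of a start call there is uncertain.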

How the data were processed

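PRO-cap was run on wild-type HUDEP-2 cells as 2 biological replicates, per the labels. Tools named in the submitters' processing notes are SAMtools 1.17, deepTools 3.5.4, Picard and BWA 0.7.16a, with hg38 as the build. How starts were called and replicates combined is not given in the sources used here. As deposited by the authors, there was 1 list of 1-base start positions per strand (given here counted from 1), so that the position column holds other values than a measured level. The score that the authors deposited is 0 on all 26395 lines. Hence there is no read depth per call, no spread between replicates and no test between samples, and intervals are 95% Wilson intervals.

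Genes, their outer coordinates and the promoter windows (250 bases before to 50 after a listed start, with strand) came from RefSeq tables of GRCh38.p14, the build of hg38. Calls and genes on chromosomes 1 to 22 and X were used (26332 calls, 58419 genes, after removal of 679 gene entries of other scaffolds). Python 3.11.15 with pandas 2.3.3 and scipy 1.17.1 did the counting, which was tested on simulated data with planted starts. Distances of 500 bp (gene end), 300 bp (partner) and 1000 bp (internal) were set, with others as alternatives. Members, the 32 other genes, markers and motifs were chosen with earlier results of these data known, so that members were compared with all protein-coding genes by counts and without a test. All members are named, together with every gene that shares a divergent start with one. Of the 32 other genes, a side of 8 or fewer is named in full, except for 1 gene that is not reported here, and otherwise its first 8 by alphabet.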

Additional observations from a re-analysis of the deposited data

How the results depend on the processing

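Of 15 alternative values, 11 stayed close to the value reported, that is, a share within its Wilson interval and within 1.5 times of it, or a median between its quartiles. The share of member genes with a called start was 95.6% when any call in or within 1000 bp of the gene counted, against 53.3% of all protein-coding genes. The share with a divergent partner was 29.7% within 150 bp and 73% within 500 bp, against 24.6% and 62.1% of all called protein-coding genes. The share with internal calls was 29.7% more than 500 bp from both ends, against 28.9% of all called protein-coding genes. With gene ends at 200 bp, 33 of 45 had a called start (73.3%), against 38.2% of all protein-coding genes. The genes lost were NUP43, NUP160, KPNA3 and XPO1. With 1000 bp the count stayed at 37 of 45 (82.2%), against 44.1% of all protein-coding genes. No paired analysis was possible because the calls are given once for the cell line and carry no replicate number, and leaving out a replicate could not be done for the same reason. A call has no depth, so that absence of a start call at KPNA6, KPNB1, NUP50 or IPO5 cannot be told apart from a start below the threshold. Whether the forward call 23016 bp into IPO5 is a start of that gene was not tested.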

Other observations

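Several noncoding genes named after member genes hold calls that are the start or partner calls of the coding gene. The single call inside IPO9-AS1 was the start call of IPO9, and the 2 calls inside NUP153-AS1 were the start call of NUP153 and its divergent partner. The calls at NUP93-DT and NUP133-DT were the divergent partners of NUP93 and NUP133. The inward call counted for TNPO1-DT lay 335 bp beyond that gene, inside TNPO1.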
